A study of Mus musculus with 24 samples.

Results

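The genes described here encode the subunits of oxidative phosphorylation, split by the genome that holds them. Members were chosen by symbol in the table of counts. The mitochondrial set took names beginning with mt- followed by Nd, Co, Atp or Cytb. The nuclear set took the Nduf subunits (groups a, b, c, s and v), *Sdha* to *Sdhd*, and names beginning with Uqcr, Cox4 to Cox8 or Atp5. Of 96 matching names, 88 had a mean of at least 1 CPM (counts scaled to a common library total) over the 24 libraries and were kept, 12 mitochondrial and 76 nuclear, out of 49315 genes in the table. All 88 were also among the 16070 genes tested. The members nearest to the limit were *Cox7a1* at 1.54 CPM and *mt-Nd4l* at 1.65 CPM inside it, and *mt-Nd3* at 0.420 CPM and *Cox4i2* at 0.213 CPM outside it. The remaining names left out were *Cox6a2*, *Cox6b2*, *Cox7b2*, *Cox8b*, *Cox8c* and *Ndufa4l2*, isoforms best known from other tissues.

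Oxidative phosphorylation makes ATP at the inner mitochondrial membrane. Complexes I, III and IV pass electrons to oxygen and pump protons, complex II feeds electrons in from succinate, and complex V, the ATP synthase, uses the returning protons. Complex II is wholly nuclear-encoded, whereas the other complexes combine nuclear-encoded subunits with a core encoded by mitochondrial DNA. Mitochondrial genes are transcribed as long precursors that are cut at transfer RNAs, and so their RNA levels are set separately from those of the nuclear genes.

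RNA was measured in MS03, an immortalised mouse Schwann cell line made *Nf2*-/- by Cre from floxed cells, and therefore 1 line in culture. All 8 groups carry this deletion and were exposed for 24 hours, to DMSO or to a compound against the focal adhesion kinase FAK dissolved in it. Defactinib, VS-4718, GSK2256098 and IN10018 are kinase inhibitors and were given at 1 µM. PROTAC FAK degrader 1, a molecule that links FAK to the cell's degradation machinery, was given at 1 µM, and the degraders GSK215 and BSJ-04-0146 were given at 0.1 µM. Each group had 3 libraries labelled as biological replicates. Whether these were separate cultures is not stated, so p-values measure the spread between these libraries.

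Totals ranged from 14472462 to 27449516 counts per library, and the libraries of the degraders were among the shallower ones. *Ptk2*, which encodes FAK, had group means of 77.9 to 97.7 CPM, and its RNA does not check the action of compounds that act on the protein. Of 10 Schwann cell markers, 7 had a mean of at least 1 CPM in DMSO, with *Sox10* at 20.1 CPM, while the glial marker *S100b* was below 1 CPM in all groups. The summed Schwann cell markers were at 69.1 to 72.5 CPM in DMSO, 268 to 279 CPM with GSK215, 241 to 262 CPM with BSJ-04-0146, 134 to 150 CPM with VS-4718 and 62.3 to 69.1 CPM with PROTAC FAK degrader 1, and between 69.5 and 101 CPM with the other drugs. Of 6 fibroblast markers 4 were above 1 CPM in DMSO, of 6 macrophage markers only *Cd68* was, of 4 neuron markers 1 was, and all 4 endothelial markers were below it. The summed fibroblast markers were at 759 to 794 CPM in DMSO, 1192 to 1219 CPM with GSK215, 1009 to 1058 CPM with VS-4718 and 638 to 655 CPM with PROTAC FAK degrader 1, and between 737 and 984 CPM with the other drugs. The mean of *Cd68* was 3.35 CPM in DMSO, 10.9 CPM with PROTAC FAK degrader 1 and 3.40 to 7.57 CPM with the other drugs. The part of these shifts in the results below was not tested. In bulk RNA, a smaller number of cells of a kind and less RNA per cell cannot be told apart.

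The mitochondrial members were not measured equally well. A segment of mouse chromosome 1 carries near-identical copies of the mitochondrial genes from *mt-Co1* to *mt-Nd4*, and a read that lies wholly in an identical stretch matches both places equally. The whole of *Gm10222*, the copy of *mt-Nd4l*, is shown because it matches the mitochondrial gene at every one of 294 aligned bases. *mt-Nd4l* lies at chrM:9877-10173 on the plus strand and *Gm10222* at chr1:24612407-24612700 on the minus strand of GRCm38. The shared sequence is read in the direction of the genes, and lower case is used throughout because no base differs.
mt-Nd4l and Gm10222: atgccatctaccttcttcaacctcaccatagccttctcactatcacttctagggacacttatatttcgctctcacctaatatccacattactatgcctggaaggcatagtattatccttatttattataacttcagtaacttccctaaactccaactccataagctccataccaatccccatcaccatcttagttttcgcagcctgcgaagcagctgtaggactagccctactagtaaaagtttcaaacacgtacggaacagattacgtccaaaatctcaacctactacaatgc

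Windows of 100 bases that occur unchanged in an annotated nuclear transcript made up 99.5% of *mt-Co2*, 99.5% of *mt-Atp6*, 99.85% of *mt-Co3*, 98.5% of *mt-Nd4l* and 60.8% of *mt-Nd4*. In *mt-Co1* the share was 30.8%, and in *mt-Nd1*, *mt-Nd5*, *mt-Nd6* and *mt-Cytb* it was 0. The 7 members with little or partial copying were above 10 CPM, and *mt-Co2*, *mt-Atp6*, *mt-Co3* and *mt-Nd4l* were at 1.65 to 4.57 CPM. *mt-Atp8*, with no such window, was also low at 2.12 CPM and overlaps *mt-Atp6*. The search covered annotated transcripts and not the sequence between them, so these shares are minimums, and that of *mt-Atp8* says nothing of the unannotated sequence. The copies had mean levels of 1.62 CPM (*Gm29216*) to 66.8 CPM (*Gm28438*). *Gm10222*, at 9.55 CPM, was above *mt-Nd4l* at 1.65 CPM, and *Gm28437*, at 16.9 CPM, was above its counterpart *mt-Co3* at 3.12 CPM. Values for the 5 low genes are therefore uncertain, and most statements below rest on *mt-Nd1*, *mt-Nd2*, *mt-Co1*, *mt-Nd4*, *mt-Nd5*, *mt-Nd6* and *mt-Cytb*. Per kilobase of transcript, *mt-Co1* had the highest mean level of all members at 8528 CPM per kb, followed by *mt-Nd1* at 6298 and *mt-Cytb* at 3930 CPM per kb. The highest nuclear member on that scale was *Atp5b*, the catalytic beta subunit of ATP synthase, at 972.7 CPM per kb.

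Each drug was compared with the same 3 DMSO libraries, so the 7 comparisons are not independent of each other. Levels below are CPM scaled by the trimmed mean of M-values (TMM), folds are log2 differences ± SE, and adjusted p-values come from the quasi-likelihood test of edgeR over all 16070 genes. A gene rose or fell where its adjusted p was below 0.05.

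PROTAC FAK degrader 1 lowered the mitochondrial RNAs. *mt-Nd1*, a core membrane subunit of complex I, was at 6499, 6544 and 6527 CPM in the DMSO libraries and at 2643, 2534 and 2600 CPM with the degrader. Every treated library was below every DMSO library. The difference was -1.33 ± 0.05 (n = 3 per group, edgeR adjusted p = 2.31e-23), a level of 39.7% of DMSO. *mt-Nd2*, the next gene on the genome, went from 2435, 2466 and 2477 CPM to 972, 963 and 968 CPM (-1.35 ± 0.06, edgeR adjusted p = 8.39e-23). Its fall was close in size to that of *mt-Nd1*. *mt-Co1*, the catalytic core of complex IV, went from 13260, 13160 and 13200 CPM to 9049, 8988 and 8953 CPM (-0.55 ± 0.04, edgeR adjusted p = 3.19e-14), which is 68.1% of DMSO. *mt-Cytb*, the mitochondrial subunit of complex III, went from 3769, 3806 and 3784 CPM to 2399, 2362 and 2340 CPM (-0.68 ± 0.04, edgeR adjusted p = 8.45e-17). All 7 genes above 10 CPM fell, *mt-Nd4* by 0.60, *mt-Nd5* by 0.81 and *mt-Nd6* by 0.94 on the log2 scale. Of all 12 mitochondrial members 10 fell, against 32.7% of all tested genes lower in this comparison, and the other 2, *mt-Co2* and *mt-Atp8*, are among the low genes.

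With GSK215 the mitochondrial RNAs went the other way. *mt-Cytb* was at 6172, 5810 and 6526 CPM, above all DMSO libraries, which lay between 3769 and 3806 CPM. The difference was 0.70 ± 0.04 (edgeR adjusted p = 7.4e-17), or 163% of DMSO. *mt-Nd5*, a proton-pumping subunit of complex I, was at 4440, 4125 and 4599 CPM against 3091, 3177 and 3207 CPM (0.47 ± 0.04, edgeR adjusted p = 9.46e-12). *mt-Nd1* did not share in this: its levels of 6712, 6316 and 6956 CPM straddled those in DMSO, and the difference was 0.03 ± 0.05 (edgeR adjusted p = 0.657). Between these, *mt-Nd4* rose by 0.43 ± 0.05, *mt-Co1* by 0.24 ± 0.04, *mt-Nd6* by 0.24 ± 0.07 and *mt-Nd2* by 0.17 ± 0.06. The call of *mt-Nd2* was lost without GSK215 replicate 3, where its difference was 0.14, and with DESeq2, as was that of *mt-Nd6*. In all 11 of 12 mitochondrial members rose, against 27.4% of all tested genes higher. All 5 low genes were among them, with *mt-Co3* at 2.49, 3.12 and 2.02 CPM in DMSO and 4.60, 4.27 and 5.83 CPM with GSK215. Among these 5, *mt-Nd4l* (0.61 ± 0.21) lost its call without DMSO replicate 3 or GSK215 replicate 1 or 3, at 0.53 to 0.57.

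BSJ-04-0146, given at the same dose as GSK215, also raised mitochondrial RNAs. *mt-Cytb* was at 6248, 5850 and 5177 CPM, above all DMSO libraries (0.60 ± 0.04, edgeR adjusted p = 5.89e-15). *mt-Nd1* was at 7199, 6609 and 5686 CPM, on both sides of the DMSO libraries, with a difference of -0.01 ± 0.05 (edgeR adjusted p = 0.939). Replicate 1 was the highest and replicate 3 the lowest of the 3 libraries for both of these genes. *mt-Nd4* rose by 0.24 ± 0.05 and *mt-Nd5* by 0.34 ± 0.04, while *mt-Nd2* (0.10 ± 0.06), *mt-Co1* (0.10 ± 0.04) and *mt-Nd6* (0.14 ± 0.07) did not pass the test. Without BSJ-04-0146 replicate 3 these 3 genes also passed, at 0.20, 0.17 and 0.23. In all, 6 of 12 mitochondrial members rose, against 27.7% of all tested genes higher. The count was 10 with trends on transcript length and GC content removed. Of the 6, 3 were low genes, *mt-Co2* (0.83 ± 0.17), *mt-Co3* (0.78 ± 0.18) and *mt-Atp6* (0.45 ± 0.16). The call of *mt-Atp6* was lost without DMSO replicate 3 or BSJ-04-0146 replicate 1 or 2 (0.35 to 0.38).

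Defactinib raised the mitochondrial RNAs more evenly along the genome. *mt-Nd1* was at 8350, 8299 and 6939 CPM, and *mt-Cytb* at 5190, 5391 and 4777 CPM, every library being above those of DMSO. Replicate 3 was the lowest for both. The differences were 0.27 ± 0.05 for *mt-Nd1* (edgeR adjusted p = 0.000186) and 0.44 ± 0.04 for *mt-Cytb* (edgeR adjusted p = 1.38e-09). The other genes above 10 CPM rose by 0.20 (*mt-Co1*) to 0.35 (*mt-Nd5*). Of the 12 mitochondrial members 8 rose, against 11.4% of all tested genes higher. The eighth, *mt-Nd4l*, is a low gene whose call was lost without DMSO replicate 1 or 3 or defactinib replicate 1 or 2, at differences between 0.43 and 0.63.

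With IN10018 the mitochondrial RNAs above 10 CPM were lower, except that *mt-Nd6* (-0.14 ± 0.07) did not pass. Of the low genes none passed. *mt-Atp8* (0.43 ± 0.21), *mt-Co2* (0.22 ± 0.17), *mt-Co3* (0.20 ± 0.18) and *mt-Atp6* (0.02 ± 0.16) were on the positive side, and *mt-Nd4l* (-0.28 ± 0.23) on the negative side. *mt-Nd1* was at 5215, 5486 and 5190 CPM, below all DMSO libraries (-0.30 ± 0.05, edgeR adjusted p = 0.000105). *mt-Nd4*, a proton-pumping subunit of complex I, was at 1166, 1158 and 1056 CPM against 1316, 1326 and 1375 CPM (-0.25 ± 0.05, edgeR adjusted p = 0.000634). *mt-Nd2* fell by 0.24 and *mt-Cytb* by 0.18 on the log2 scale. These 4 genes passed with each library left out in turn. In all 6 of 12 mitochondrial members fell, against 6.85% of all tested genes lower. The other 2 were *mt-Co1* (-0.13 ± 0.04) and *mt-Nd5* (-0.14 ± 0.04). The call of *mt-Co1* was lost without any 1 of the DMSO libraries or IN10018 replicate 1 or 3 (-0.14 to -0.12). That of *mt-Nd5* was lost without DMSO replicate 2 or 3 or IN10018 replicate 1 or 3 (-0.13 to -0.10), and both were lost with limma and DESeq2.

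For GSK2256098 and VS-4718 the number of mitochondrial members called depended on the fit. With GSK2256098, *mt-Cytb* was at 4575, 4540 and 4443 CPM, above all DMSO libraries (0.26 ± 0.04, edgeR adjusted p = 6.59e-05). Of the 12 members 3 rose, against 6.36% of all tested genes higher. The count was 5 without the filter on low counts, 6 in a fit to only the 6 libraries compared and 8 with trends on transcript length and GC content removed, and 1 without DMSO replicate 1 or GSK2256098 replicate 1. The other 2 of the 3, *mt-Nd5* (0.16 ± 0.04) and the low *mt-Atp8* (0.66 ± 0.21), lost the call when single libraries were left out. *mt-Nd5* did so without DMSO replicate 1 or GSK2256098 replicate 1 or 2 (0.14 each), and with limma and DESeq2, and *mt-Atp8* without DMSO replicate 1 or 3 or any GSK2256098 library (0.47 to 0.68).

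With VS-4718, *mt-Cytb* was at 4948, 4807 and 4585 CPM, also above all DMSO libraries (0.34 ± 0.04, edgeR adjusted p = 5.45e-08). It was the 1 of 12 mitochondrial members that rose, against 20.4% of all tested genes higher. *mt-Nd1*, at 6099, 5733 and 6045 CPM, was the 1 member that fell (-0.13 ± 0.05, edgeR adjusted p = 0.0462), against 18.9% of all tested genes lower. Its call was lost without any 1 of the DMSO libraries or VS-4718 replicate 2 (-0.14 to -0.10), and with limma and DESeq2. With library totals in place of TMM, 2 mitochondrial members rose with VS-4718 and the call of *mt-Nd1* was lost. The 2 calls became 4 with mitochondrial genes left out of the scaling, 5 without the filter on low counts and 6 in a fit to only the 6 libraries compared. They became 4 without VS-4718 replicate 3, and 1 with limma, with DESeq2, or without DMSO replicate 2 or 3 or VS-4718 replicate 2.

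**Figure D1:**
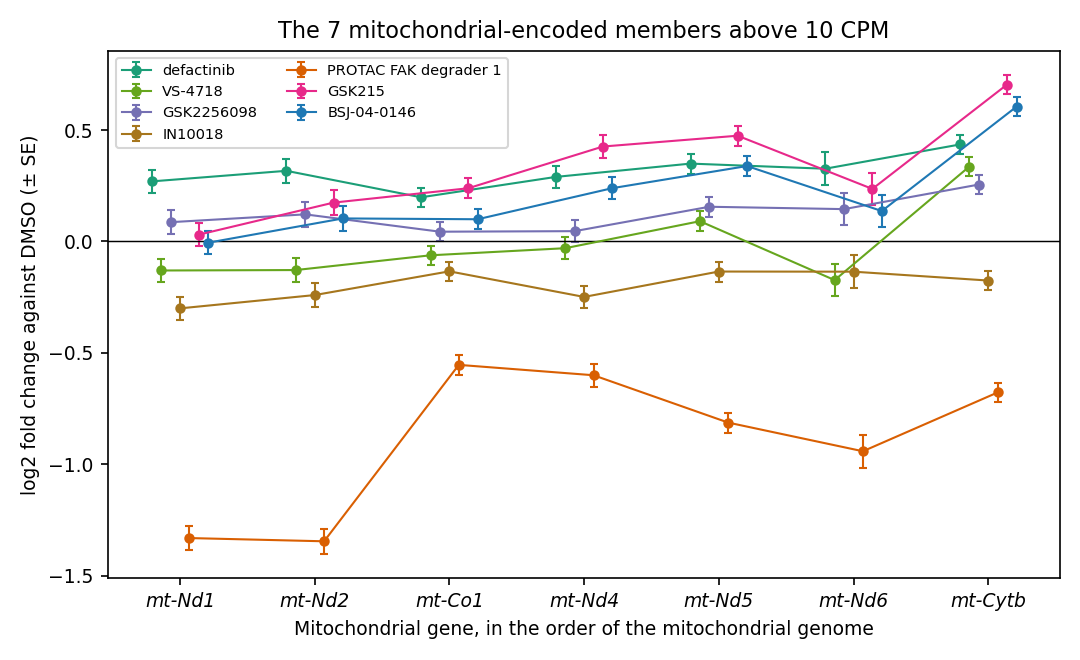
The edgeR log2 fold change against DMSO (vertical axis, with its SE, 3 libraries per group) is plotted for the 7 mitochondrial members above 10 CPM. Genes follow the order of the mitochondrial genome (horizontal axis), with 1 line per drug. With GSK215 the values go from 0.03 at *mt-Nd1* to 0.70 at *mt-Cytb*, and with PROTAC FAK degrader 1 from -1.33 to -0.68.

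The mitochondrial RNAs thus did not move by 1 common factor, and the ratio of *mt-Nd1* to *mt-Cytb* counts within a library describes this without any scaling between libraries. The pair was chosen after its values were seen, so the ratio was not tested. In DMSO it was 1.72 ± 0.0030 (SD, n = 3). It was 1.58 ± 0.012 with IN10018, 1.53 ± 0.078 with defactinib, 1.53 ± 0.031 with GSK2256098 and 1.248 ± 0.064 with VS-4718. It was lowest with BSJ-04-0146 at 1.13 ± 0.027, PROTAC FAK degrader 1 at 1.10 ± 0.020 and GSK215 at 1.08 ± 0.012. The highest treated library, a defactinib library at 1.61, was below the lowest DMSO library at 1.72. *mt-Nd6*, the 1 member on the opposite strand, overlaps *mt-Nd5* by a few bases, and the strand setting of the counting is not given.

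**Figure D2:**
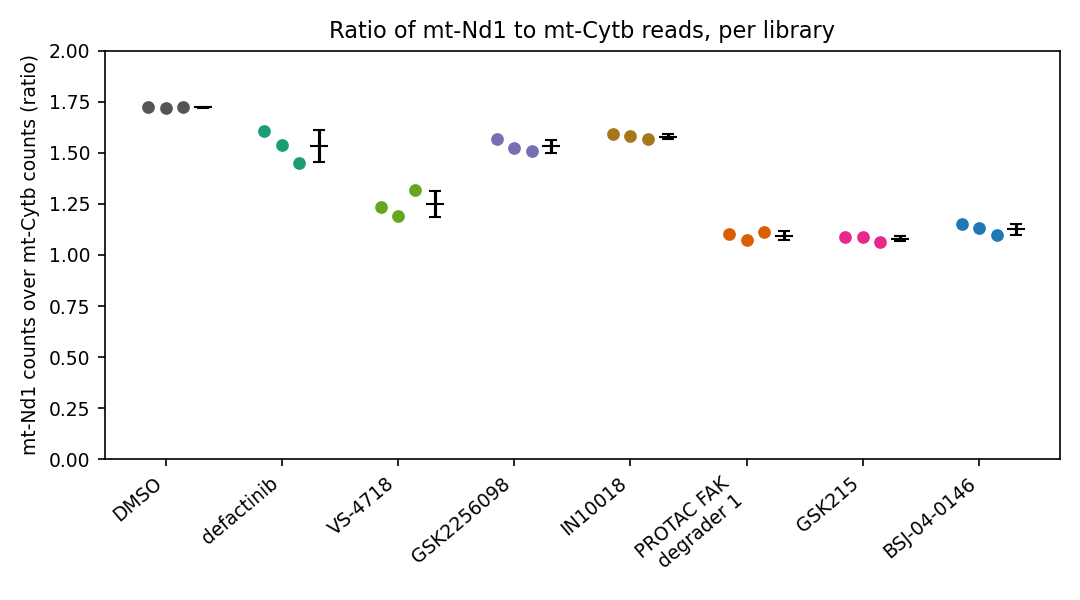
The ratio of *mt-Nd1* to *mt-Cytb* counts (vertical axis) is shown for each of the 24 libraries (points) by group (horizontal axis), with the mean and SD of 3 libraries as bars. All treated libraries lie below the DMSO libraries, and those of the 3 degraders lie between 1.07 and 1.15.

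The direction of the nuclear members called differed between drugs. Their median log2 fold change lay between -0.05 (GSK215) and 0.15 (BSJ-04-0146), beside -0.0044 to 0.021 for all tested genes. PROTAC FAK degrader 1 raised 28 of 76, against 34.1% of all tested genes higher, and lowered 25 (32.7% lower over all genes). GSK215 raised 13 and lowered 28, against 27.4% and 27.2% of all tested genes. BSJ-04-0146 raised 42 and lowered 12, against 27.7% and 26.9%. These splits depend on the scaling: with library totals in place of TMM, they were 39 higher and 20 lower with PROTAC FAK degrader 1, 33 and 15 with GSK215, and 58 and 7 with BSJ-04-0146. Library totals moved the median of all genes by 0.12 with GSK215 and 0.11 with BSJ-04-0146. The nuclear members have short transcripts, with a median of 1087.5 bases beside 2964 over all tested genes. With trends on length and GC content removed, the split was 7 higher and 35 lower with GSK215, and 29 and 17 with BSJ-04-0146.

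Among the inhibitors, VS-4718 raised 22 nuclear members and lowered 14, against 20.4% and 18.9% of all tested genes. Defactinib lowered 11, against 11.0% of all tested genes lower, and the other 65 did not pass (7 called without defactinib replicate 3). GSK2256098 raised 7 and lowered 8, against 6.36% and 6.09%. Single libraries decided much of that count of 15, which was 8 without DMSO replicate 1 or 3 and 6 without DMSO replicate 2 or GSK2256098 replicate 3. IN10018 raised 22, against 6.44% of all tested genes higher, and the other 54 did not pass. That count was 12 without DMSO replicate 2, 14 without DMSO replicate 3, 11 without IN10018 replicate 3 and 11 with length and GC trends removed. With library totals the splits were 2 higher and 9 lower with defactinib and 14 and 6 with GSK2256098, and with the mitochondrial genes left out of the scaling 3 and 10 with GSK2256098.

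**Figure D3:**
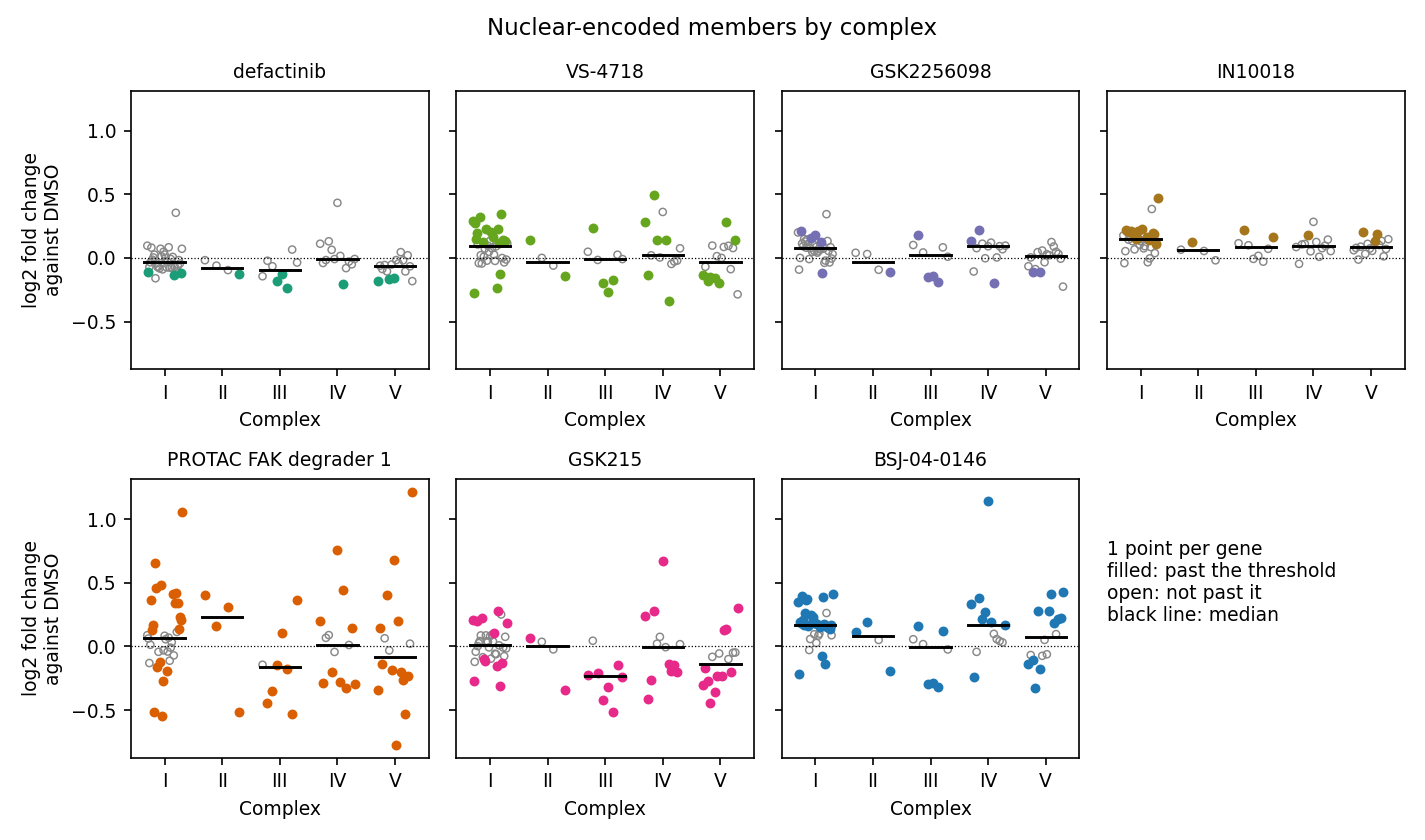
Each point is 1 nuclear member, placed by complex (horizontal axis) and log2 fold change against DMSO (vertical axis) in a panel per drug, filled where its edgeR adjusted p was below 0.05, with the median as a bar. Complex III lies mostly below 0 with GSK215, with 7 of 8 members lower (4, and 1 higher, with library totals), and complex I mostly above 0 with BSJ-04-0146, with 24 of 35 higher.

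Complex I holds 35 of the nuclear members. With BSJ-04-0146, 24 of them rose and 3 fell (27.7% and 26.9% of all tested genes), and with IN10018, 15 rose and 20 did not pass (6.44% of all tested genes higher). With library totals in place of TMM the split with BSJ-04-0146 was 31 and 1, and with length and GC trends removed it was 15 and 3 with BSJ-04-0146 and 7 higher with IN10018. *Ndufv3*, an accessory subunit of the arm that oxidises NADH, was at 26.7, 27.2 and 27.7 CPM in DMSO and at 37.9, 36.2 and 39.0 CPM with IN10018 (0.47 ± 0.05, edgeR adjusted p = 9.18e-09). It was at 59.0, 54.0 and 56.2 CPM with PROTAC FAK degrader 1 (1.05 ± 0.05, edgeR adjusted p = 1.34e-21). Its level was thus about doubled with the degrader, at 207% of DMSO, with no overlap between the groups. *Ndufv3* also rose with BSJ-04-0146 (0.41 ± 0.05) and with GSK215 (0.19 ± 0.05). *Ndufa12*, an accessory subunit, rose by 0.22 ± 0.05 with IN10018 and by 0.21 ± 0.05 with GSK2256098, and *Ndufb6* by 0.23 ± 0.06 with IN10018. *Ndufa5* was at 45.7, 43.7 and 44.1 CPM in DMSO and 59.7, 54.9 and 52.0 CPM with VS-4718 (0.32 ± 0.05, edgeR adjusted p = 3.81e-06). With PROTAC FAK degrader 1 it was at 32.5, 32.03 and 28.5 CPM (-0.52 ± 0.06, edgeR adjusted p = 3.84e-10), below DMSO in every library. Of the nuclear members of complex I, *Ndufb2* had the lowest value with this degrader, -0.54 ± 0.07. *Ndufs5* with VS-4718 (0.34 ± 0.13) and *Ndufb5* with GSK2256098 (0.18 ± 0.06) rose, but either call was lost without several single libraries, at 0.28 to 0.33 (DMSO replicate 1 or 3, VS-4718 replicate 2 or 3) and 0.14 to 0.19 (any DMSO library, GSK2256098 replicate 1 or 3). That of *Ndufs5* was also lost with limma and DESeq2. *Ndufa10* fell by 0.28 with VS-4718, by 0.27 with GSK215 and by 0.22 with BSJ-04-0146 on the log2 scale.

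Complex II, the succinate dehydrogenase, has 4 subunits and no mitochondrial gene. All 4 passed the test with PROTAC FAK degrader 1, 3 higher and 1 lower, against 34.1% and 32.7% of all tested genes. *Sdha*, the flavoprotein that oxidises succinate, was at 418, 425 and 428 CPM in DMSO and 566, 564 and 550 CPM with this degrader (0.40 ± 0.03, edgeR adjusted p = 9.77e-16). *Sdhd*, a membrane anchor, went from 120, 121 and 115 CPM to 84.4, 86.1 and 78.9 CPM (-0.51 ± 0.04, edgeR adjusted p = 7.78e-15). The groups did not overlap for either gene, and the directions were opposite. *Sdhc*, the other membrane anchor, rose by 0.31 ± 0.04, and *Sdhb*, the iron-sulphur subunit, by 0.16 ± 0.04. *Sdhd* also fell with GSK215, at 92.1, 93.8 and 94.3 CPM (-0.34 ± 0.04, edgeR adjusted p = 7.2e-10), and with BSJ-04-0146 (-0.19 ± 0.04), VS-4718 (-0.14 ± 0.04), defactinib (-0.12 ± 0.04) and GSK2256098 (-0.11 ± 0.04). The call with defactinib was lost without DMSO replicate 2 or defactinib replicate 3 (-0.11 each). That with GSK2256098 was lost without DMSO replicate 1 or 2 or GSK2256098 replicate 2 or 3 (-0.12 to -0.092), with library totals, with limma and without the filter on low counts.

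In complex III, 7 of the 8 nuclear members fell with GSK215 (1 rose and 4 fell with library totals), against 27.2% of all tested genes lower. With PROTAC FAK degrader 1, 2 rose and 5 fell, against 34.1% and 32.7%. With BSJ-04-0146, 2 rose and 3 fell (4 and 3 with library totals), against 27.7% and 26.9%. Defactinib lowered 3, against 11.0%. VS-4718 raised 1 and lowered 3, against 20.4% and 18.9%, and GSK2256098 did the same, against 6.36% and 6.09%. *Uqcr11*, a small accessory subunit, was the 1 that rose with VS-4718 (0.23 ± 0.06) and with GSK2256098 (0.18 ± 0.06, edgeR adjusted p = 0.0497). With GSK2256098 this call was lost with length and GC trends removed and with mitochondrial genes left out of the scaling. *Uqcrfs1*, the Rieske iron-sulphur protein, was at 168, 165 and 156 CPM in DMSO and 115, 116 and 112 CPM with GSK215 (-0.51 ± 0.04, edgeR adjusted p = 2.11e-14). With BSJ-04-0146 it was at 132, 135 and 127 CPM (-0.32 ± 0.04, edgeR adjusted p = 4.48e-09), and with defactinib at 139, 144 and 133 CPM (-0.23 ± 0.04, edgeR adjusted p = 1.08e-05). All of these libraries were below those of DMSO. *Uqcrc1*, a core protein of the complex, fell with the same drugs, by 0.42, 0.30 and 0.18 on the log2 scale. With GSK2256098, *Uqcrfs1* was at -0.19 ± 0.04 and *Uqcrc1* at -0.15 ± 0.04, both called lower. With VS-4718 these 2 genes were at -0.17 ± 0.04 and -0.20 ± 0.04, also called lower. *Uqcrc2*, the second core protein, fell by 0.32 with GSK215, by 0.29 with BSJ-04-0146, by 0.27 with VS-4718, by 0.15 with GSK2256098 and by 0.13 with defactinib, and rose with PROTAC FAK degrader 1 (0.11 ± 0.03). With PROTAC FAK degrader 1 *Uqcrfs1* (-0.17 ± 0.04) and *Uqcrc1* (-0.15 ± 0.04) were also called lower. The mitochondrial subunit of this complex, *mt-Cytb*, was called higher with defactinib, VS-4718, GSK2256098, GSK215 and BSJ-04-0146, and lower with PROTAC FAK degrader 1 and IN10018.

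Complex IV has subunits with alternative isoforms. *Cox4i1*, the common form of subunit IV, was at 505, 477 and 485 CPM in DMSO and at 563, 577 and 595 CPM with GSK215 (0.24 ± 0.04, edgeR adjusted p = 1.14e-05). It rose also with BSJ-04-0146 (0.33 ± 0.04), VS-4718 (0.28 ± 0.04) and PROTAC FAK degrader 1 (0.20 ± 0.04). *Cox6a1*, the non-muscle form of subunit VIa, was at 202, 176 and 188 CPM in DMSO and 285, 286 and 225 CPM with VS-4718 (0.49 ± 0.06, edgeR adjusted p = 5.14e-08). VS-4718 replicate 3 was lower than the other two but above DMSO. *Cox6a1* rose by 0.38 ± 0.07 with BSJ-04-0146 and by 0.28 ± 0.07 with GSK215. Its rise with GSK2256098 (0.22 ± 0.06) was not called with DESeq2, or without DMSO replicate 2 or 3 or GSK2256098 replicate 3 (0.17 to 0.21). *Cox7a2l*, a factor that joins complexes III and IV, was at 70.2, 73.5 and 74.1 CPM in DMSO and 57.4, 52.9 and 62.1 CPM with VS-4718 (-0.34 ± 0.05, edgeR adjusted p = 8.26e-07). With PROTAC FAK degrader 1 it was at 99.7, 102 and 93.9 CPM (0.44 ± 0.05, edgeR adjusted p = 2.37e-10), above DMSO. It fell by 0.21 with defactinib and by 0.20 with GSK2256098, the latter call being lost without GSK2256098 replicate 3 (-0.16). *Cox7a1*, the heart and muscle form of subunit VIIa, was near the lower limit at 1.27, 0.865 and 1.11 CPM in DMSO. It was at 2.42, 1.84 and 2.90 CPM with BSJ-04-0146 (1.14 ± 0.24, edgeR adjusted p = 7.05e-05). It also rose with PROTAC FAK degrader 1 (0.76 ± 0.24) and with GSK215 (0.67 ± 0.25), where the call was lost without DMSO replicate 2 or GSK215 replicate 3 (0.52 and 0.53). The common form *Cox7a2* rose by 0.19 ± 0.05 with BSJ-04-0146 and fell with PROTAC FAK degrader 1 (-0.28 ± 0.05, edgeR adjusted p = 1.08e-05).

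In complex V, 5 of 16 nuclear members rose and 8 fell with PROTAC FAK degrader 1 (7 and 7 with library totals), against 34.1% and 32.7% of all tested genes. *Atp5s*, named coupling factor B, was at 3.75, 4.44 and 4.53 CPM in DMSO and 9.92, 10.9 and 8.82 CPM with this degrader (1.21 ± 0.12, edgeR adjusted p = 5.22e-12). It rose by 0.42 ± 0.13 with BSJ-04-0146, not called without BSJ-04-0146 replicate 1 (0.33). With GSK215 it was at 0.30 ± 0.13 (edgeR adjusted p = 0.0494), and this call was lost without DMSO replicate 1 or 2 or any GSK215 library (0.22 to 0.33), with DESeq2, with the replicate block, without the filter and with mitochondrial genes left out of the scaling. *Atp5k*, the e subunit, was at 31.8, 27.4 and 30.2 CPM in DMSO and 25.1, 17.9 and 18.1 CPM with the degrader (-0.53 ± 0.08, edgeR adjusted p = 3.02e-07). Replicate 1 stood above the others but below DMSO. *Atp5d*, the delta subunit of the catalytic head, was at 212, 217 and 221 CPM in DMSO and 156, 160 and 162 CPM with GSK215 (-0.44 ± 0.04, edgeR adjusted p = 9.66e-12). It fell by 0.33 on the log2 scale with BSJ-04-0146. *Atp5j*, coupling factor 6 of the stalk, was at 94.6, 93.8 and 93.2 CPM in DMSO and 116, 133 and 125 CPM with BSJ-04-0146 (0.41 ± 0.05, edgeR adjusted p = 4.27e-10).

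*Atp5g1*, *Atp5g2* and *Atp5g3* encode the same mature c subunit of the ATP synthase ring with different import sequences, and the data bear on how their RNA is shared out. Their promoters are printed because the 3 genes moved differently while their product is the same. Each window runs from 250 bases before to 50 after the start of the gene in RefSeq (GRCm38.p6), on the minus strand in all 3 cases. They lie at chr11:96075582-96075881 (*Atp5g1*), chr15:102670998-102671297 (*Atp5g2*) and chr2:73911277-73911576 (*Atp5g3*). Capitals mark matches to the motifs described after the sequences.
Atp5g1: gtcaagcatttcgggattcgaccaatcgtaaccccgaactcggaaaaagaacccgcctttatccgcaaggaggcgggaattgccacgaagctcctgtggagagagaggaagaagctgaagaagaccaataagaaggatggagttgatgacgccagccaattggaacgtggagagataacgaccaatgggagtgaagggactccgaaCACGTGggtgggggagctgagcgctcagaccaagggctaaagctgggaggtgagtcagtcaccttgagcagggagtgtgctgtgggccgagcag
Atp5g2: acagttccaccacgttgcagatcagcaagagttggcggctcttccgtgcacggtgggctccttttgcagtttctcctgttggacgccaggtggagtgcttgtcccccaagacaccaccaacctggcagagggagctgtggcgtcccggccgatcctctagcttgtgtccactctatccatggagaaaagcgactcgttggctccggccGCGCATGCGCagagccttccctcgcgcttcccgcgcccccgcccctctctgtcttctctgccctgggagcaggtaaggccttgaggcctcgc
Atp5g3: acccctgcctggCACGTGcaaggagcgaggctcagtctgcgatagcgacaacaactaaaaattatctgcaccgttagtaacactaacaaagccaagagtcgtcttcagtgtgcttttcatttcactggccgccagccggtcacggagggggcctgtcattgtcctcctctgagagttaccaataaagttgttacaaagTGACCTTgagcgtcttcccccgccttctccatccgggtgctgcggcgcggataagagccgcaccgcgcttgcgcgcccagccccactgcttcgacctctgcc

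Motifs were searched as exact letters on both strands. *Atp5g1* holds an E-box (CACGTG), and *Atp5g3* holds an E-box and the letters of the oestrogen-related receptor motif (AAGGTCA, on the opposite strand). *Atp5g2* holds the letters of nuclear respiratory factor 1, NRF1 (GCGCATGC), where matches on both strands overlap. A window was found for 65 of the 76 nuclear members, 2 of them by an older symbol. The NRF1 letters were in 15.4% of these 65 genes beside 3.05% of 27025 genes with a window, and YY1 (AAGATGGCG) was in 10.8% beside 1.64%. The receptor motif was in 12.3% beside 5.38%, CREB (TGACGTCA) in 6.15% beside 2.03%, GABP (CCGGAAGT) in 7.69% beside 4.31%, and the E-box in 9.23% beside 8.09%. The TGACGTCA and CACGTG matches of the 2 strands are the same bases, since these letters read alike on both. These matches describe the letters and not binding.

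*Atp5g3*, the most abundant of the 3 genes by counts, was at 428, 428 and 440 CPM in DMSO and 261, 247 and 249 CPM with PROTAC FAK degrader 1. *Atp5g2* was at 138, 140 and 140 CPM in DMSO and 238, 216 and 214 CPM with the degrader. The groups were apart for both, in opposite directions: -0.78 ± 0.03 for *Atp5g3* (edgeR adjusted p = 1.53e-22) and 0.68 ± 0.04 for *Atp5g2* (edgeR adjusted p = 1.21e-17). *Atp5g1* was at 168, 152 and 162 CPM in DMSO and 148, 140 and 135 CPM with the degrader (-0.19 ± 0.04, edgeR adjusted p = 8.84e-05). With GSK215, *Atp5g1* (-0.24 ± 0.04) and *Atp5g3* (-0.23 ± 0.03) both fell, and *Atp5g2* was at -0.06 ± 0.04 (edgeR adjusted p = 0.285). With BSJ-04-0146 none of the 3 passed the test, at -0.07 ± 0.04 (edgeR adjusted p = 0.118), 0.05 ± 0.04 (edgeR adjusted p = 0.33) and -0.06 ± 0.03 (edgeR adjusted p = 0.107) in the order of their numbers. *Atp5g2* fell with defactinib (-0.16 ± 0.04) and VS-4718 (-0.19 ± 0.04), where *Atp5g1* and *Atp5g3* did not pass.

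**Figure D4:**
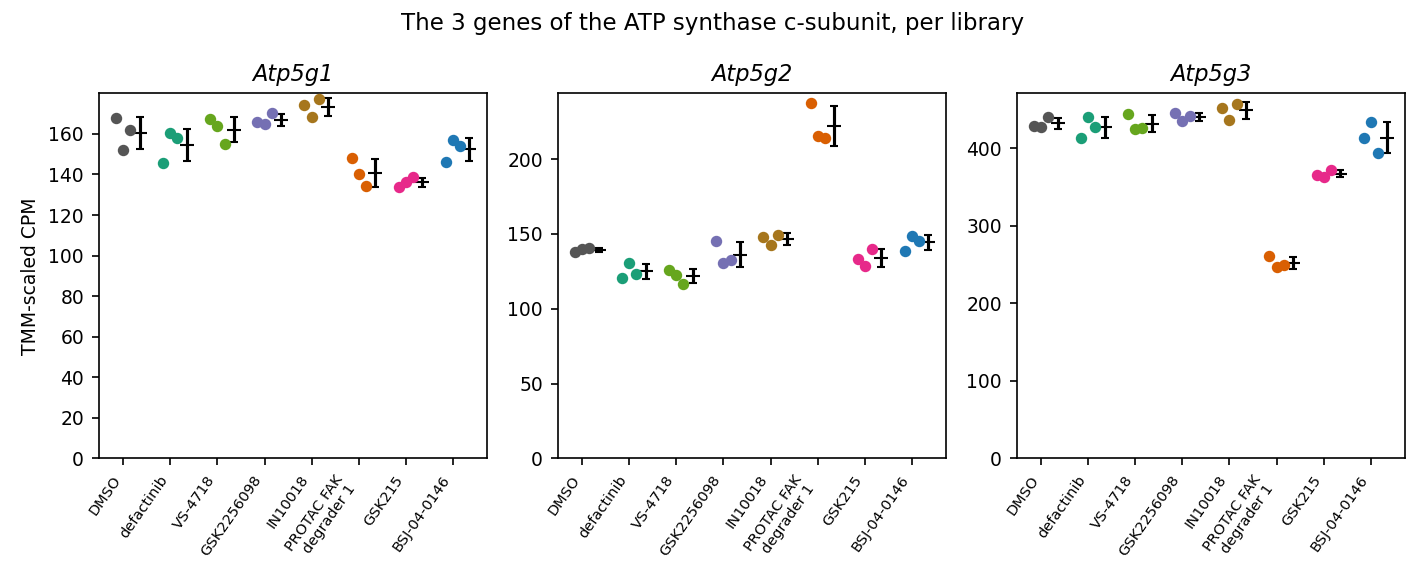
TMM-scaled CPM (vertical axes, each from 0 and with its own range) of *Atp5g1*, *Atp5g2* and *Atp5g3* are shown for each library (points) by group (horizontal axis), with the mean and SD of 3 libraries as bars. With PROTAC FAK degrader 1, *Atp5g2* lies above all other libraries and *Atp5g3* below them.

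The 2 genomes were compared within each library as the summed counts of the mitochondrial members over those of the nuclear members. This ratio needs no scaling between libraries. In DMSO it was 2.75 ± 0.035 (SD, n = 3), and mitochondrial members took 3.02% of all counts. With PROTAC FAK degrader 1 the ratio was 1.56 ± 0.067, or 56.8% of DMSO, and the mitochondrial share of counts was 1.84%. The libraries lay between 1.49 and 1.63, far below the DMSO range of 2.71 to 2.77. IN10018 gave 2.28 ± 0.11, also below every DMSO library. Above DMSO were GSK215 with 3.63 ± 0.17, at 132% of DMSO, and defactinib with 3.46 ± 0.24, at 126%. GSK2256098 gave 2.92 ± 0.051 and BSJ-04-0146 gave 3.04 ± 0.32, with libraries from 2.79 to 3.40. VS-4718, at 2.72 ± 0.068, overlapped DMSO.

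The nuclear sum stayed between means of 1.07% (defactinib) and 1.21% (BSJ-04-0146) of all counts, and the mitochondrial sum between 1.84% (PROTAC FAK degrader 1) and 4.02% (GSK215). By the median log2 fold change of the members, the mitochondrial and nuclear sets were at -0.82 and 0.03 with PROTAC FAK degrader 1, 0.54 and -0.05 with GSK215, and 0.32 and -0.04 with defactinib. They were at 0.29 and 0.15 with BSJ-04-0146, -0.14 and 0.11 with IN10018, 0.14 and 0.05 with GSK2256098 and -0.06 and 0.03 with VS-4718. With GSK2256098 the difference of the medians was 0.083, and it was 0.050 without DMSO replicate 1, 0.045 without GSK2256098 replicate 2 and 0.17 with length and GC trends removed. With VS-4718 it was -0.085, and it was -0.014 without DMSO replicate 2, -0.14 without DMSO replicate 1, -0.047 without VS-4718 replicate 2, -0.20 without VS-4718 replicate 3 and turned to 0.056 with length and GC trends removed. The difference of the medians with GSK215 was 0.59, and it was 0.29 with members of at least 10 CPM and 0.36 with limma. That with BSJ-04-0146 rested on replicate 1 and on the low genes, since it was -0.0082 without that library and -0.010 with members of at least 10 CPM. The ratio and these medians are descriptions with no test, because the members were chosen together.

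**Figure D5:**
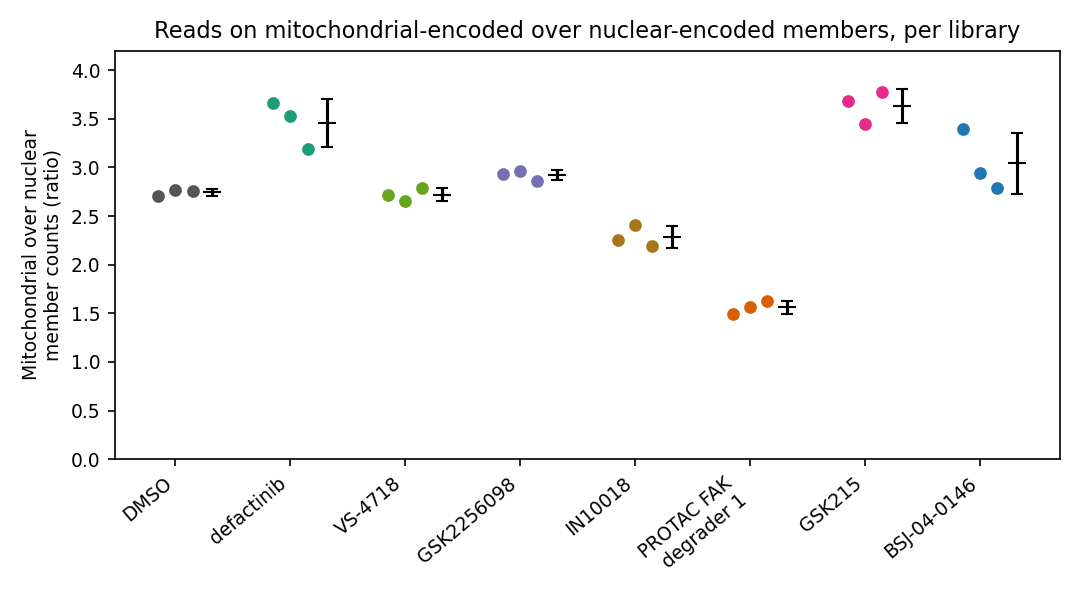
The ratio of summed mitochondrial to summed nuclear member counts (vertical axis, from 0) is shown for each library (points) by group (horizontal axis), with the mean and SD of 3 libraries as bars. The libraries of PROTAC FAK degrader 1 lie between 1.49 and 1.63 and those of GSK215 between 3.44 and 3.78, around a DMSO range of 2.71 to 2.77.

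Drugs at the same dose were compared directly in 3 pairs, in the same edgeR model. At 1 µM, PROTAC FAK degrader 1 was below defactinib for 11 of 12 mitochondrial members, against 34.0% of all tested genes lower. *mt-Nd1* differed by -1.60 ± 0.05 (edgeR adjusted p = 6.83e-26) and *mt-Cytb* by -1.11 ± 0.04 (edgeR adjusted p = 1.5e-23), 33.0% and 46.2% of the defactinib level. Of the nuclear members 31 were higher and 19 lower with the degrader, against 34.9% and 34.0% of all tested genes. *Atp5s* (1.397 ± 0.12), *Ndufv3* (0.98 ± 0.05) and *Atp5g2* (0.83 ± 0.04) were the highest of them.

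Also at 1 µM, VS-4718 was below defactinib for 8 of 12 mitochondrial members, against 16.0% of all tested genes lower. *mt-Nd1* differed by -0.40 ± 0.05 (edgeR adjusted p = 1.07e-07), while *mt-Cytb* did not pass at -0.10 ± 0.04 (edgeR adjusted p = 0.079). Of the nuclear members 26 were higher and 5 lower with VS-4718, against 18.0% and 16.0% of all tested genes, with *Cox6a1* (0.36 ± 0.06) and *Ndufa11* (0.34 ± 0.07) the highest. That count of 31 was 17 without defactinib replicate 1.

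At 0.1 µM, BSJ-04-0146 was above GSK215 for 50 of the 76 nuclear members, against 12.6% of all tested genes higher, and the other 26 did not pass. The count was 30 without BSJ-04-0146 replicate 2. The members above included 13 of 16 in complex V, such as *Atp5e* (0.36 ± 0.08, edgeR adjusted p = 0.000418), and 10 of 13 in complex IV. Of the mitochondrial members 3 were lower with BSJ-04-0146, against 9.88% of all tested genes lower: *mt-Nd4* at -0.19 ± 0.05, *mt-Co1* at -0.14 ± 0.04 and *mt-Nd5* at -0.14 ± 0.04. Without single libraries this count was 1 (GSK215 replicate 3), 5 (BSJ-04-0146 replicate 1) and 0 (BSJ-04-0146 replicate 3, where edgeR gave 1 at an unadjusted p below 0.05). *mt-Nd1* (-0.04 ± 0.05, edgeR adjusted p = 0.693) and *mt-Cytb* (-0.10 ± 0.04, edgeR adjusted p = 0.103) did not pass. The other pairs of drugs, among them the remaining ones at 1 µM, were not compared.

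The mitochondrial transfer RNAs lie between the members on the same precursors, and 17 of 22 were tested. PROTAC FAK degrader 1 lowered 15 of them and raised 1, with a median of -1.14, against 32.7% of all tested genes lower. *mt-Tf*, the first gene of the genome, fell furthest (-2.89 ± 0.18, edgeR adjusted p = 4.88e-17). *mt-Tp*, the last, on the opposite strand, was the 1 that rose (0.92 ± 0.07, edgeR adjusted p = 1.24e-15). With GSK215, 1 rose and 7 fell (27.4% and 27.2% of all tested genes), at a median of -0.39, where the mitochondrial members were at 0.54. With BSJ-04-0146, 1 rose and 8 fell (27.7% and 26.9%), with VS-4718, 6 fell (18.9%), and with defactinib, 7 rose (11.4%). With IN10018, 3 fell (6.85%), and with GSK2256098, 3 rose and 1 fell (6.36% and 6.09%). These RNAs are short and were counted after poly(A) selection, and the part of this in their values was not tested.

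Genes that act on mitochondrial DNA and RNA, 26 of 28 tested, had more members called lower than higher with each drug other than defactinib. Defactinib raised 2 and lowered 3, against 11.4% and 11.0% of all tested genes, and had 2 of each with library totals. IN10018 raised 1 and lowered 4, against 6.44% and 6.85% of all tested genes. PROTAC FAK degrader 1 raised 5 and lowered 15 (median -0.20), against 34.1% and 32.7% of all tested genes. With GSK215 the split was 2 and 15 (27.4% and 27.2%), and with BSJ-04-0146, 2 and 16 (27.7% and 26.9%). GSK2256098 lowered 10 of the 26 (median -0.10), against 6.09% of all tested genes lower, and the other 16 did not pass. That count was 7 with library totals and 6 with length and GC trends removed. *Fastkd5*, a protein needed to process mitochondrial RNAs without flanking transfer RNAs, was at 13.2, 13.6 and 13.3 CPM in DMSO and 4.14, 4.75 and 5.41 CPM with PROTAC FAK degrader 1 (-1.49 ± 0.09, edgeR adjusted p = 2.37e-17). *Tfb1m*, which methylates mitochondrial ribosomal RNA, rose (0.82 ± 0.08). With GSK215, *Tbrg4* fell by 0.59 on the log2 scale. It was also below every DMSO library (158 to 165 CPM) with every other drug, at 111, 112 and 107 CPM with BSJ-04-0146. *Trmt10c*, a subunit of the nuclease that cuts transfer RNAs at their 5′ end, fell by 0.56 with BSJ-04-0146. With GSK215 it was at 29.7, 28.95 and 29.1 CPM, against 42.0, 44.6 and 41.2 CPM in DMSO. With VS-4718, 2 rose and 13 fell (20.4% and 18.9% of all tested genes), among them *Polrmt*, the mitochondrial RNA polymerase (0.25 ± 0.04), and *Tefm*, its elongation factor (-0.54 ± 0.09). Of 8 tested genes of mitochondrial DNA replication, 3 rose and 4 fell with PROTAC FAK degrader 1 (34.1% and 32.7% of all tested genes), including *Primpol*, a primase and polymerase (1.92 ± 0.07), and *Polg*, the replicative polymerase (-0.59 ± 0.04). With GSK215 the topoisomerase *Top1mt* fell by 0.68.

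Of 13 tested regulators of mitochondrial biogenesis, 3 rose and 7 fell with PROTAC FAK degrader 1 (6 and 6 with library totals), 1 and 9 with GSK215, and 2 and 8 with BSJ-04-0146. The shares of all tested genes were 34.1% and 32.7%, 27.4% and 27.2%, and 27.7% and 26.9%. *Ppargc1a*, the coactivator PGC-1alpha, was at 0.633, 1.35 and 1.07 CPM in DMSO. It was at 6.66, 6.63 and 6.78 CPM with PROTAC FAK degrader 1 (2.68 ± 0.18), 2.82, 2.72 and 2.52 CPM with GSK215 (1.37 ± 0.21) and 4.54, 3.85 and 3.66 CPM with BSJ-04-0146 (1.95 ± 0.20). Its relative *Pprc1* went from 142, 151 and 147 CPM to 59.2, 56.8 and 60.9 CPM with PROTAC FAK degrader 1 (-1.31 ± 0.04, edgeR adjusted p = 3.09e-28). *Myc* fell by 0.60 with GSK215 and by 0.62 with BSJ-04-0146. With PROTAC FAK degrader 1 it was at 518, 490 and 507 CPM, above 378, 371 and 381 CPM in DMSO. *Cycs*, cytochrome c, which carries electrons from complex III to IV, went from 270, 266 and 259 CPM to 114, 120 and 108 CPM with PROTAC FAK degrader 1 (-1.22 ± 0.04, edgeR adjusted p = 1.58e-27). With GSK215 it was at 197, 188 and 192 CPM (-0.47 ± 0.04, edgeR adjusted p = 1.89e-14).

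Of 9 hypoxia-linked genes that act on mitochondria, IN10018 and PROTAC FAK degrader 1 raised 8 each, with list medians of 0.45 and 0.62, *Hif1a* being the gene that did not pass. Of all tested genes 6.44% and 34.1% were higher with these drugs. *Pdk1*, the kinase that shuts off pyruvate entry into the tricarboxylic acid cycle, was at 78.2, 76.0 and 73.5 CPM in DMSO, 125, 120 and 126 CPM with IN10018 and 185, 183 and 179 CPM with PROTAC FAK degrader 1. These are differences of 0.70 ± 0.04 and 1.26 ± 0.04. With GSK215 all 9 fell (median -0.47), and 7 of 9 fell with defactinib, VS-4718 and BSJ-04-0146 each, against 27.2%, 11.0%, 18.9% and 26.9% of all tested genes lower. With GSK2256098, 6 fell, against 6.09%. *Bnip3*, a mitophagy receptor, was at 105, 100 and 93.9 CPM in DMSO and 37.0, 40.9 and 39.4 CPM with GSK215 (-1.35 ± 0.04, edgeR adjusted p = 7.55e-26). The counts for defactinib became 4 lower with library totals. Whether this list moves with the mitochondrial members was not tested.

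Assembly factors of the complexes, 48 of 50 tested, split into 21 higher and 14 lower with PROTAC FAK degrader 1, 7 and 17 with GSK215, and 10 and 16 with BSJ-04-0146. The shares of all tested genes were 34.1% higher and 32.7% lower, 27.4% and 27.2%, and 27.7% and 26.9%. With library totals the last of the assembly factor splits turned to 16 higher and 9 lower, and that with GSK215 was 12 and 13. *Lyrm7*, an assembly factor of complex III, rose with PROTAC FAK degrader 1 (1.37 ± 0.15) and fell with VS-4718 (-0.90 ± 0.19). *Ecsit*, an assembly factor of complex I, fell by 0.65 with GSK215 and by 0.66 with BSJ-04-0146. Of 14 enzymes of the tricarboxylic acid cycle, 6 rose and 4 fell with PROTAC FAK degrader 1 (5 and 7 with length and GC trends removed), 2 and 9 with GSK215, 2 and 7 with BSJ-04-0146, and 7 fell with defactinib. With library totals they were 4 and 6 with GSK215, and 5 and 6 with BSJ-04-0146. These counts stand beside the same shares of all tested genes as those of the assembly factors, and beside 11.0% lower with defactinib. *Cs*, citrate synthase, fell by 0.56 with GSK215 and 0.47 with BSJ-04-0146. *Slc25a5*, an ADP and ATP exchanger of the inner membrane, fell by 0.72 with GSK215, by 0.62 with BSJ-04-0146, by 0.51 with VS-4718 and by 0.43 with PROTAC FAK degrader 1 on the log2 scale.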

How the data were processed

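Bulk RNA of 24 libraries (8 groups, 3 each) was poly(A)-selected. The authors deposited raw counts per gene, whole numbers with no normalization. The submitters' processing notes name Trimmomatic 0.36, STAR 2.5.2b, featureCounts and Subread 1.5.2, and the build GRCm38. The strand setting is not given in the sources used here. Coordinates and lengths are from GENCODE on GRCm38. edgeR 4.0.16 under R 4.3.3 was run on these counts: TMM scaling, filterByExpr, then the quasi-likelihood functions glmQLFit and glmQLFTest, with a coefficient for each group and 16 degrees of freedom left. Tests were two-sided, with Benjamini-Hochberg adjustment over 16070 genes and a threshold of 0.05. The SE is the size of the log2 fold change over the square root of F. Of the 49315 rows, 174 had no gene symbol and stayed in the table. The steps were tested on simulated data.

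Named genes were all mitochondrial members, for each drug the 3 largest increases and decreases among called nuclear members whose groups did not overlap, the Sdh and isoform genes, and the extremes of each list. Other members and transfer RNAs were named after their values were seen. Members and lists were chosen with earlier results of these data known. Replicates differed by more than counting noise (chi-square per degree of freedom 1.80 to 9.44 over 24 pairs). Alternatives, with limma 3.58.1 and DESeq2 1.42.0 among them, are given in the closing section.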

Additional observations from a re-analysis of the deposited data

How the results depend on the processing

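Of 481 alternative values for 34 counts, medians and ratios, 411 stayed close to the reported value, 66 moved further and 4 changed direction. A median or ratio was taken as close within 1 SD of the drug's libraries. The margin for counts was wide: 5 to 9 mitochondrial calls with BSJ-04-0146, on leaving out single libraries, were all taken as close to 6. Requiring a change of at least 0.32 on the log2 scale left 4 (defactinib), 1 (VS-4718), 1 (GSK2256098) and 0 (IN10018) mitochondrial calls, and 0, 3, 0, 1, 26 (PROTAC FAK degrader 1), 7 (GSK215) and 12 (BSJ-04-0146) nuclear calls. The pairs then had 5 mitochondrial and 2 nuclear calls (VS-4718 against defactinib), 22 nuclear (PROTAC FAK degrader 1 against defactinib), and 0 and 1 (BSJ-04-0146 against GSK215). Fits to only the 6 libraries compared gave 17, 34 and 43 nuclear calls with defactinib, GSK2256098 and IN10018, and 6 mitochondrial calls with VS-4718 and with GSK2256098. Without the filter on low counts, mitochondrial calls were 5 with VS-4718, GSK2256098 and BSJ-04-0146 against GSK215. Mitochondrial calls with VS-4718 were 1 with limma, 1 with DESeq2 and 4 with mitochondrial genes left out of the scaling, and DESeq2 gave 1 for BSJ-04-0146 against GSK215. Members of at least 10 CPM gave 6 mitochondrial calls with GSK215, 3 with BSJ-04-0146 and 7 for PROTAC FAK degrader 1 against defactinib, out of 7 genes.

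Removing length and GC trends, an alternative chosen after seeing the data, gave 8 (GSK2256098) and 10 (BSJ-04-0146) mitochondrial calls, 0 for BSJ-04-0146 against GSK215 by edgeR (2 at an unadjusted p below 0.05), and 11 nuclear calls with IN10018. The mitochondrial minus nuclear median then turned to 0.056 with VS-4718, and was 0.17 with GSK2256098, -0.18 with IN10018 and -0.74 with PROTAC FAK degrader 1. With limma it was -0.60 with PROTAC FAK degrader 1 and 0.36 with GSK215. With members of at least 10 CPM it was 0.29 with GSK215 and turned to -0.010 with BSJ-04-0146. The ratio relative to DMSO, as a difference of mean log2 CPM, was 0.958 (VS-4718), 1.11 (GSK2256098), 0.884 (IN10018) and 1.47 (GSK215). With library totals, *Sdhc* and *Cox7a2* turned to higher with GSK215, at 0.10 and 0.12. The cause was not tested.

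Leaving out single libraries gave 7 to 14 nuclear calls with defactinib, 6 to 12 with GSK2256098, 11 to 21 with IN10018, 17 to 32 for VS-4718 against defactinib and 30 to 52 for BSJ-04-0146 against GSK215. Mitochondrial calls ranged from 1 to 4 with VS-4718 and with GSK2256098, and from 0 to 5 for BSJ-04-0146 against GSK215. The difference of medians ranged from -0.20 to -0.014 with VS-4718, -0.31 to -0.21 with IN10018 and -0.0082 to 0.26 with BSJ-04-0146, and the ratio with VS-4718 from 0.978 to 1.00 of DMSO. Same-numbered replicates did not deviate together (correlations of -0.17 to 0.10, none of 21 pairs over 0.1), so the numbers do not pair the libraries. With a replicate block, mitochondrial calls were 10 with PROTAC FAK degrader 1 and 11 with GSK215, and nuclear calls 53 and 39. The 5 low mitochondrial genes had 13 to 145 counts per library, which limits the precision of their values.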
